A study of Oncorhynchus mykiss with 24 samples.

Results

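The genes described here are col1a2 and sparc, which encode matrix proteins of connective tissue. They were chosen by gene symbol from the platform annotation, with their ratios in the 6 test diets already known, so every ratio to the vehicle pool below is a description and not a test. The annotation names 32 genes on 49 of the 4368 features of the array, a feature being a pair of neighbouring spots. One feature carries col1a2 (spots 9020205 and 9020206). A first sparc feature holds spots 1020209 and 1020210, and a second one holds spots 6020313 and 6020314, so 2 genes, 3 features and 6 spots are described. The annotation ties the sparc features to different expressed sequence tags of 1 gene. The gene behind the col1a2 feature is listed as LOC100135811 in the gene table of the assembly USDA_OmykA_1.1, with col1a2 as a synonym, and 1 other trout gene now bears the symbol col1a2. Whether RNA of that other gene also bound the col1a2 spots was not tested.

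Livers came from Mt. Shasta strain rainbow trout (Oncorhynchus mykiss) aged 12 to 18 months. Feeding lasted 12 days, livers were taken on day 13, and each treatment had 2 tanks of 6 fish. The diets held E2 at 5 ppm, BNF at 500 ppm, I3C at 500 or 1500 ppm, or DIM at 500 or 1500 ppm. These labels are read here as estradiol, the main estrogen of vertebrates, as β-naphthoflavone, a synthetic agonist of the aryl hydrocarbon receptor, as indole-3-carbinol, an indole from cruciferous vegetables, and as 3,3'-diindolylmethane, its acid condensation dimer. All groups shared the same semi-purified casein diet at a ration of 2.8% of body weight, and the vehicle diet held 0.15% dimethyl sulfoxide. The vehicle group is a single pool of equal RNA amounts from 12 fish. Each diet has 2 treated RNA samples, each read on 2 arrays with the dyes exchanged, which makes 12 samples and 24 arrays. The labels do not say which or how many fish stand behind a treated sample, so the errors below reflect how far these samples lay apart, and part of that may be technical.

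Type I collagen is the main fibre of connective tissue, and col1a2 encodes one of its chains. sparc encodes a secreted glycoprotein that binds collagen and calcium and that is also called osteonectin. In mammalian liver, stellate cells and fibroblasts rather than hepatocytes are the main source of type I collagen, and both genes are known to rise in fibrosis there. A fibre-forming cell can make less of such an RNA, or a piece of liver can hold fewer such cells, and RNA from whole liver cannot tell these apart.

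Values are log2 ratios of treated RNA over the pool, centred on each array's median. A ratio of -1 means that the treated liver had a signal 2 times lower than the pool. The direction is a likely one only: channel 1 is Cy3 in the labels of all 24 arrays, but which channel was divided by which is not stated. With Cy5 on top, every sign below would be the opposite one. The 4 arrays of the first E2 sample and the first DIM 500 ppm sample were anticorrelated over all spots with arrays labelled in the same dye order, at a median r of -0.70 to -0.54, against 0.20 to 0.77 for the other 20 arrays. Their direction is not settled. They were turned here, and values with their signs as deposited are given too. One of the 24 deposited columns, that of BNF replicate 1 with treated RNA in Cy5, held linear ratios. Paired spots correlated less well on the arrays of BNF replicate 1, at 0.41 and 0.57, than on the rest, at 0.81 to 0.94.

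With the 4 arrays turned, col1a2 stood below the pool in 12 of 12 samples and on 22 of 24 arrays. With signs as deposited, it did so in 10 of 12 samples and on 18 of 24 arrays. Its diet means lay between -1.06 and -0.47, that is 1.39 to 2.08 times below the pool, with a standard error of 0.15 on the log2 scale in each diet (limma, n = 2 samples). A natural log cannot be told apart from a log2 in the deposited values. With it, the means other than that of BNF would be 2.01 to 2.87 times below the pool. The BNF mean is left out of this range, since it holds the linear column, which was converted with log2.

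In E2-fed fish the samples stood at -0.76 and -0.96, with a mean of -0.86. In BNF-fed fish they stood at -0.48 and -0.46, with a mean of -0.47. The samples were 0.20 apart in E2 and 0.020 apart in BNF, and E2 minus BNF was not tested. With signs as deposited, the E2 samples were 1.72 apart and lay on either side of the BNF pair. I3C at 500 ppm gave -0.79 and -0.60, with a mean of -0.70. I3C at 1500 ppm gave -0.69 and -0.95, with a mean of -0.82. The samples of the 2 I3C doses overlapped. DIM at 500 ppm gave -1.23 and -0.88, with a mean of -1.06. DIM at 1500 ppm gave -1.22 and -0.84, with a mean of -1.03. At each DIM dose replicate 1 was the lower sample, by 0.36 and 0.38. At 500 ppm this rests on the turned sample, which with its sign as deposited was the higher one by 2.11.

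**Figure D1:**
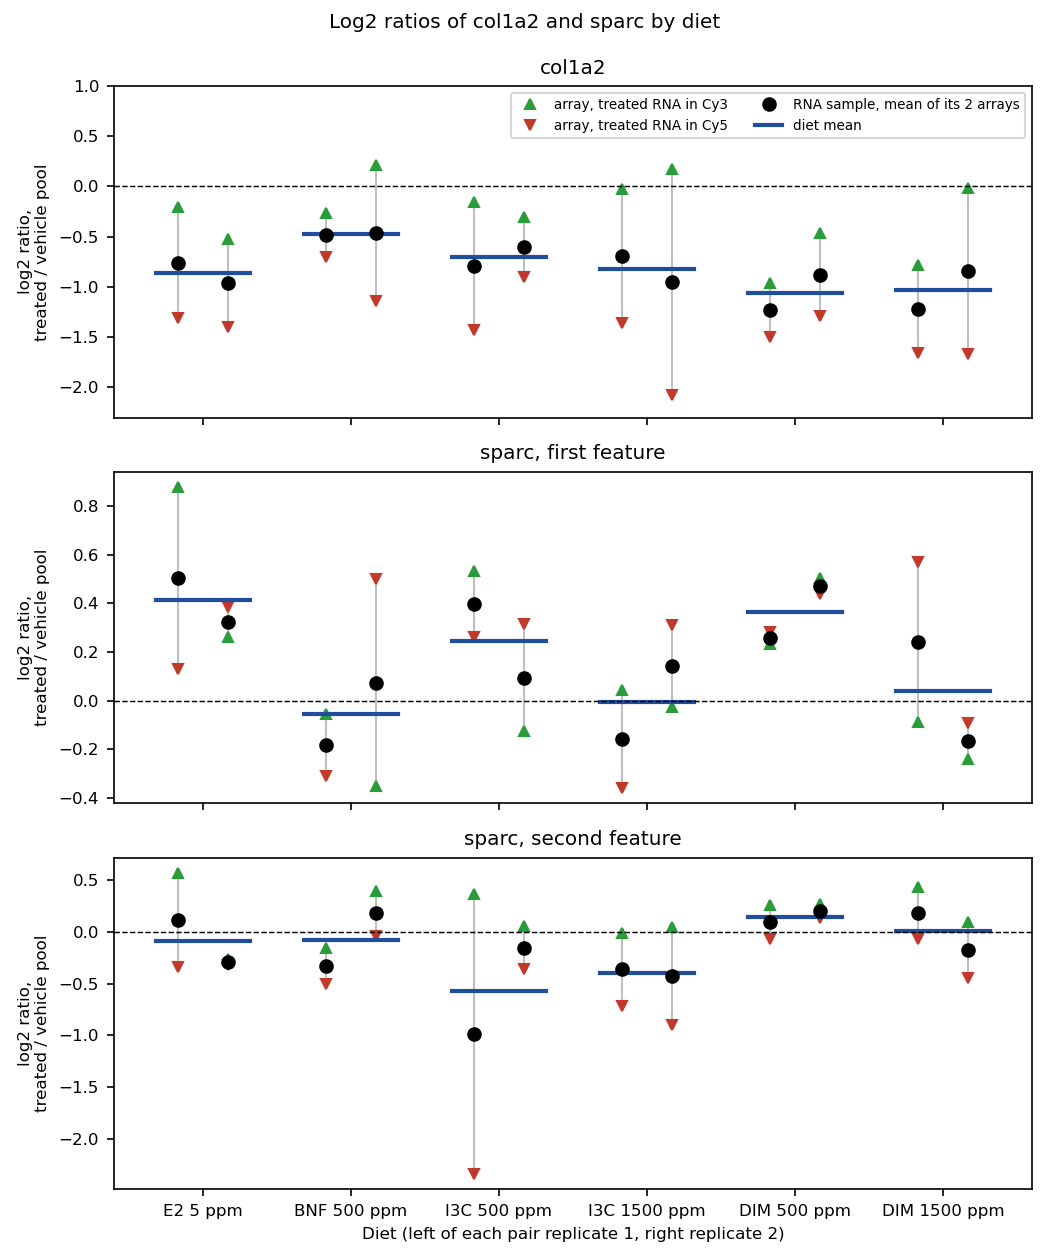
Log2 ratios of treated liver RNA over the vehicle pool (vertical axis) by diet (horizontal axis) for col1a2 and the first and second sparc features. Triangles are arrays, with treated RNA in Cy3 (up) or Cy5 (down), black points are RNA samples (means of 2 arrays), blue lines are diet means and the dashed line is equality with the pool. With 4 arrays turned, all 12 col1a2 samples lie below 0, while the sparc samples lie on both sides.

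The order of the diet means, from the lowest, was DIM 500 ppm, DIM 1500 ppm, E2, I3C 1500 ppm, I3C 500 ppm and BNF. Neighbours in this order were 0.025 to 0.23 apart, with a standard error of 0.22 for a difference of 2 diets. The samples of neighbouring diets overlapped at every step except the last, between I3C 500 ppm and BNF, which were 0.23 apart. That difference was not tested, and how many other features have such separate samples was not counted. The other gaps were smaller than the standard error, and the order of those neighbours is not resolved. With signs as deposited, DIM 500 ppm was the highest of the 6 at 0.18 and E2 the next at -0.10, and the other diets kept their order among themselves.

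In limma's fit over 4368 features, col1a2 was below the Benjamini-Hochberg threshold of 0.05 in 4 of 6 diets, always as lower. Of all features, 3.64% were called lower in E2, 0% in BNF (299 features passed an unadjusted p of 0.05 there, in either direction), 0.343% in I3C 500 ppm, 5.49% in I3C 1500 ppm, 7.35% in DIM 500 ppm and 5.17% in DIM 1500 ppm. The 4 diets were E2, I3C 1500 ppm and both DIM doses, and 118 features (2.7%) were likewise called lower in at least 4 diets. The I3C 1500 ppm call was lost without replicate 2 of that diet, at -0.69, and the E2 call without replicate 2 of E2, at -0.76. In each case the lone sample was assumed to vary like the other groups. With signs as deposited, col1a2 in E2 was 0.76 in replicate 1 and -0.96 in replicate 2, with a mean of -0.10. DIM at 500 ppm then gave 1.23 and -0.88, with a mean of 0.18. The other 4 diet means kept their values, the standard error rose to 0.45 in every diet, and col1a2 was called in 0 of 6 (limma, 1 at an unadjusted p under 0.05). With the 2 turned samples left out, the col1a2 means were -0.96 in E2 and -0.88 in DIM 500 ppm, each from 1 sample. All 6 diet means were then below the pool.

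Without centring, the median of all features was -0.34 in E2, -0.34 in BNF and -0.44 in I3C 500 ppm, against 0.030, 0.010 and 0.032 with it. col1a2 then stood at -0.83 in BNF and at -1.17 in I3C 500 ppm, where it was called. The share of all features called in that refit is not given here.

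All 12 ratios share 1 pool. A high col1a2 level in that pool and a lower level common to all treated livers cannot be told apart, since no other vehicle sample was analysed here. With the 4 arrays turned, the mean over the 12 samples was -0.82 ± 0.25 (SD, n = 12), and 75 of the 4368 features (1.72%) had a lower mean. Being below the pool in all 12 samples was shared by 163 features (3.73%).

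**Figure D2:**
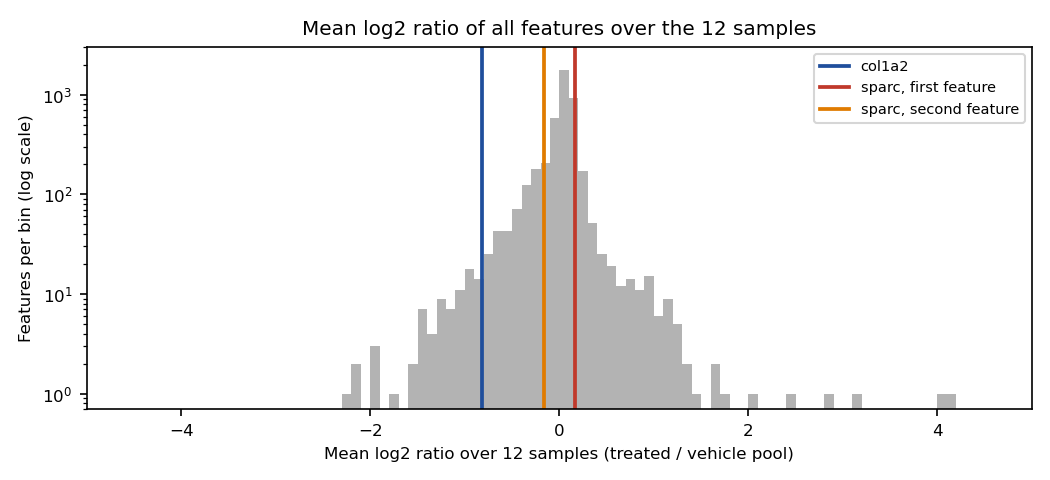
Number of features (vertical axis, log scale) by the mean log2 ratio over the 12 samples (horizontal axis, bins of 0.1), with col1a2 and the sparc features as vertical lines. col1a2 lies in the lower tail at -0.82, and the sparc features lie at 0.17 and -0.16, near the bulk.

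The ratio of col1a2 depended on the dye. With treated RNA in Cy5 and the 4 arrays turned, its ratio was below 0 on 12 of 12 arrays, from -2.08 to -0.70. With treated RNA in Cy3, it was below 0 on 10 of 12 arrays, from -0.97 to 0.21. The mean of the swapped arrays taken in the dye direction is a dye part, in which a treatment effect cancels. With the 4 arrays turned, it was 0.55 ± 0.26 (SD, n = 12 samples), and 30.0% of features had a larger absolute one. In the turned samples its sign is the opposite one with signs as deposited. With these arrays turned, the dye part ran from 0.22 in BNF replicate 1 to 1.13 in I3C 1500 ppm replicate 2. Diet means and tests therefore use the swap means, and values of single arrays are given only as description.

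The col1a2 spots followed each other, with r = 0.91 over 24 arrays and a median gap of 0.13 between them. The widest gap, 0.78, was on the array with linear values. Read as single spots, the first was called lower in 5 diets and the second in 4. The share of all spots called in that fit is not given here.

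**Figure D3:**
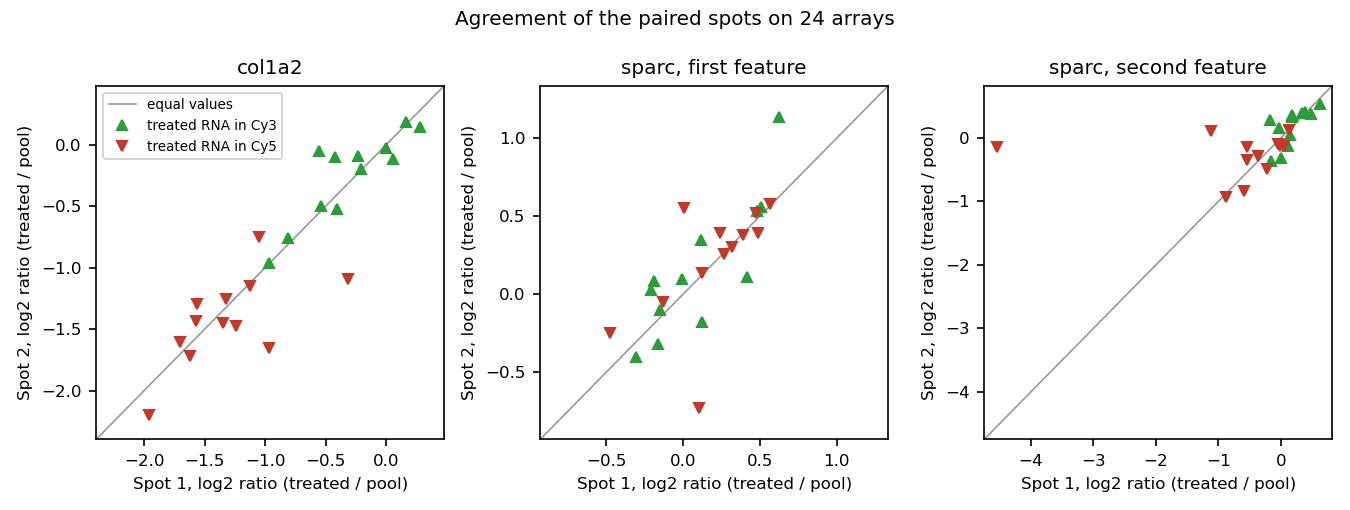
Log2 ratio of spot 1 (horizontal axis) against spot 2 (vertical axis) for each feature on 24 arrays, with treated RNA in Cy3 (up) or Cy5 (down). The line marks equal values. On 1 array, spot 1 of the second sparc feature stands at -4.54 and its partner at -0.14.

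No diet mean of sparc passed the adjusted threshold against the pool (limma, 0 of 12). In either direction, 5.98% of all features passed it in E2, 0.0458% in BNF and 0.755% in I3C 500 ppm. For I3C 1500 ppm the share was 9.07%, for DIM 500 ppm 10.6% and for DIM 1500 ppm 9.87%. An unadjusted p under 0.05 was found for 3 sparc means (limma). These were the first feature in E2 and in DIM 500 ppm and the second in I3C 500 ppm. Of the 4368 features, 635 in E2, 801 in DIM 500 ppm and 608 in I3C 500 ppm had such a p. The sparc features stood on both sides of the pool. For the first feature, E2-fed fish gave 0.51 and 0.32, with a mean of 0.41 ± 0.16 (SE, limma). BNF gave -0.18 and 0.072, with a mean of -0.055. E2 was thus the highest of the 6 diets and BNF the lowest, and the difference between them was not tested. I3C at 500 ppm gave 0.40 and 0.094, with a mean of 0.25, and I3C at 1500 ppm gave -0.16 and 0.14, with a mean of -0.0078. DIM at 500 ppm gave 0.26 and 0.47, with a mean of 0.36, and DIM at 1500 ppm gave 0.24 and -0.17, with a mean of 0.037. In E2 and in DIM 500 ppm all 4 arrays were above 0, while in the other diets arrays lay on both sides of the pool. From the lowest mean the order was BNF, I3C 1500 ppm, DIM 1500 ppm, I3C 500 ppm, DIM 500 ppm and E2, with gaps of 0.045 to 0.21 and overlapping samples at every step. E2 and DIM 500 ppm are the diets with turned arrays, and with signs as deposited their means were -0.091 and 0.11. With the 4 arrays turned, the first sparc feature stood above the pool in 9 of 12 samples. With signs as deposited, replicate 1 of E2 and of DIM 500 ppm stood below it, at -0.51 and -0.26. How many other features stand above the pool as often was not counted. The side also depends on the centring: without it the mean was -0.22 in I3C 500 ppm and 0.047 in E2.

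The second sparc feature gave 0.12 and -0.29 in E2, with a mean of -0.085 ± 0.20 (SE, limma). BNF gave -0.33 and 0.18, with a mean of -0.074. In both diets the samples fell on either side of the pool. I3C at 500 ppm gave -0.99 and -0.15, with a mean of -0.57, and I3C at 1500 ppm gave -0.36 and -0.43, with a mean of -0.39. DIM at 500 ppm gave 0.095 and 0.20, with a mean of 0.15, and DIM at 1500 ppm gave 0.19 and -0.17, with a mean of 0.0055. From the lowest mean the order was I3C 500 ppm, I3C 1500 ppm, E2, BNF, DIM 1500 ppm and DIM 500 ppm. Neighbours were 0.011 to 0.31 apart, with a standard error of 0.28 for a difference of 2 diets. Among neighbours in this order, only the samples of I3C 1500 ppm and E2 did not overlap. The difference between these diets was not tested, and how many other features have such separate samples was not counted. With signs as deposited, the E2 mean was -0.20 and the DIM 500 ppm mean 0.053.

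The lowest of these means, that of I3C 500 ppm, rests on 1 spot. Without centring it was -1.04 and called, in a refit with 1 common standard error of 0.25 for col1a2 and sparc. The median of all features in I3C 500 ppm was -0.44 in that refit, and the share of them called is not given here. On the array of I3C 500 ppm replicate 1 with treated RNA in Cy5, spot 6020313 had the highest deposited value of all 8736 spots, 5.60, while its partner 6020314 was at 1.20. In the treated over pool direction these are -4.54 and -0.14 after centring. On the other 23 arrays spot 6020313 lay between -1.11 and 0.62. The gap of 4.40 was the widest of the 4368 pairs on that array, where the median gap was 0.18. With that spot left out, a setting chosen after the data were seen, the samples of I3C 500 ppm stood at 0.11 and -0.15 and their mean at -0.018. On the swapped array of the same RNA sample, with treated RNA in Cy3, spot 6020313 stood at 0.34 and its partner at 0.40. Scanner intensities and spot flags were not used here, and whether the spot was at fault was not tested.

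**Figure D4:**
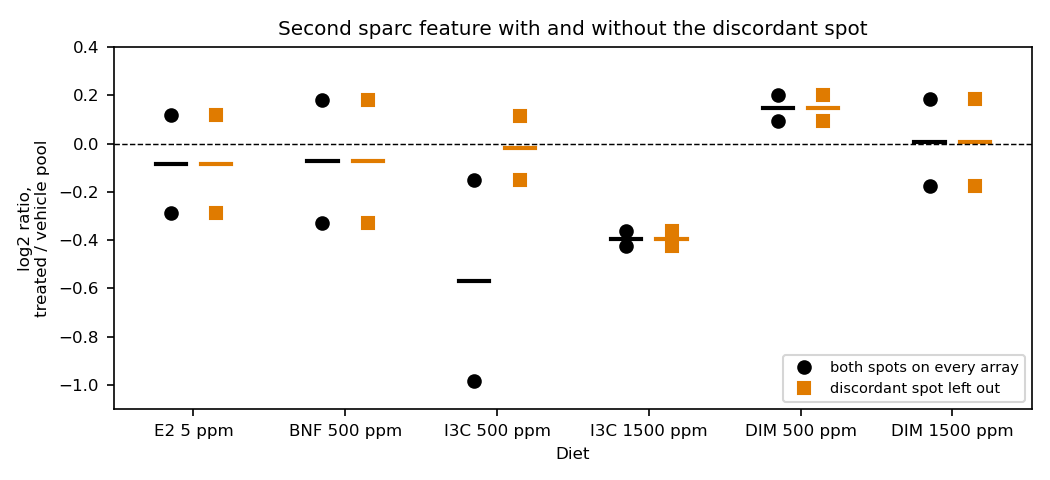
Log2 ratio over the vehicle pool (vertical axis) of the second sparc feature in the 2 samples of each diet (horizontal axis), with both spots on every array (black circles) and with spot 6020313 left out on 1 array (orange squares). Lines are diet means. The I3C 500 ppm mean moves to -0.018 without that spot, against -0.57 with it, and the other diets keep their values.

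Over the 12 samples the sparc features correlated with each other at r = 0.15 (Spearman 0.29) with all spots and at r = 0.62 (Spearman 0.54) without it. For comparison, the 4 pairs of features on the array made from 1 and the same sequence tag correlated at 0.65 to 0.98. The 22 pairs of 1 gene but different tags, the sparc pair among them, lay at -0.39 to 0.87, with a median of 0.51. The highest of the 22 all came from a single gene, LOC100136295, at 0.79 to 0.87. Of other genes, LOC100136294 reached 0.73, while hsc70a stood at 0.17 and hsp90ba at -0.39 and -0.28. With col1a2, the first sparc feature correlated at -0.42 (Spearman -0.45) and the second at -0.18 (Spearman -0.13). These correlations are descriptions, with the 4 arrays turned, over samples that share a pool, a platform and a swap design.

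Differences between diets do not hold the pool, which cancels. They were tested for 6 pairs of diets in the same limma fit. Of the 18 differences of the 3 features, 0 passed the adjusted threshold and 1 had an unadjusted p under 0.05. In limma's moderated F test among the 6 diets the 3 features did not pass either, with an adjusted p of 0.72 for col1a2, 0.83 for the first sparc feature and 0.771 for the second, where 4.9% of all features passed.

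I3C and its dimer DIM were compared at matched doses. At 500 ppm col1a2 was -0.70 in I3C and -1.06 in DIM, a difference of 0.36 (95% interval -0.11 to 0.82, limma adjusted p = 0.70), where 2.82% of features passed. At 1500 ppm it was -0.82 in I3C and -1.03 in DIM, a difference of 0.21 (95% interval -0.26 to 0.67, limma adjusted p = 0.999), where 0.0229% passed. Both intervals hold 0, and they also hold differences as large as 0.67, so the compounds are not shown to act alike on col1a2. The sign at 500 ppm turned without centring, at -0.077, and with signs as deposited, at -0.88. Other refits gave a larger difference, 0.77 with arrays scaled alike and 0.50 with spot 2 alone. Their unadjusted p was 0.012 and 0.043 (limma), and neither was called. For the first sparc feature the differences were -0.12 (95% interval -0.60 to 0.36) at 500 ppm, which was 0.14 with signs as deposited, and -0.045 (95% interval -0.52 to 0.43) at 1500 ppm. The second sparc feature differed by -0.72 (95% interval -1.31 to -0.12) at 500 ppm, which is the difference with an unadjusted p under 0.05 and was known when the genes were chosen. Its limma adjusted p was 0.306, and without spot 6020313 the difference was -0.17 (95% interval -0.67 to 0.34). At 1500 ppm it was -0.40 (95% interval -0.99 to 0.19).

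The 1500 ppm dose was set against 500 ppm for each indole. For I3C, col1a2 was -0.82 at 1500 ppm and -0.70 at 500 ppm, a difference of -0.12 (95% interval -0.59 to 0.34, limma adjusted p = 0.822), where 1.08% of features passed. For DIM, it was -1.03 at 1500 ppm and -1.06 at 500 ppm, a difference of 0.025 (95% interval -0.44 to 0.49, limma adjusted p rounding to 1), where 0% of features passed and 54 had an unadjusted p under 0.05. No dose step in col1a2 passed the threshold for either compound. The DIM step rests on the turned sample: it was -1.21 with signs as deposited and -0.15 without the turned samples, neither of them called. The I3C step turned to 0.22 without centring and to 0.11 with spot 1 alone. The first sparc feature had lower means at 1500 than at 500 ppm in both compounds, by -0.25 for I3C (95% interval -0.73 to 0.22) and -0.33 for DIM (95% interval -0.81 to 0.15), neither of them called. For the second feature the steps were 0.17 (95% interval -0.42 to 0.77) and -0.14 (95% interval -0.74 to 0.45). The I3C step of the second feature turned to -0.38 without spot 6020313, and that of the first to 0.091 without centring.

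The indole diets were also set beside the estrogen and the flavone at unlike doses. col1a2 was -1.03 in DIM 1500 ppm and -0.86 in E2, a difference of -0.17 (95% interval -0.64 to 0.29, limma adjusted p = 0.999), where 0.458% of features passed. It turned to 0.18 without centring and was -0.93 with signs as deposited. It was -0.82 in I3C 1500 ppm and -0.47 in BNF, a difference of -0.35 (95% interval -0.81 to 0.12, limma adjusted p = 0.456), where 4.35% passed. For sparc, DIM 1500 ppm minus E2 was -0.38 for the first feature and 0.090 for the second. I3C 1500 ppm minus BNF was 0.047 for the first and -0.32 for the second. The sparc features had opposite signs in both comparisons, and all 4 intervals held 0. For the first feature, DIM 1500 ppm minus E2 turned to 0.13 with signs as deposited, and I3C 1500 ppm minus BNF to -0.032 with spot 1 alone.

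**Figure D5:**
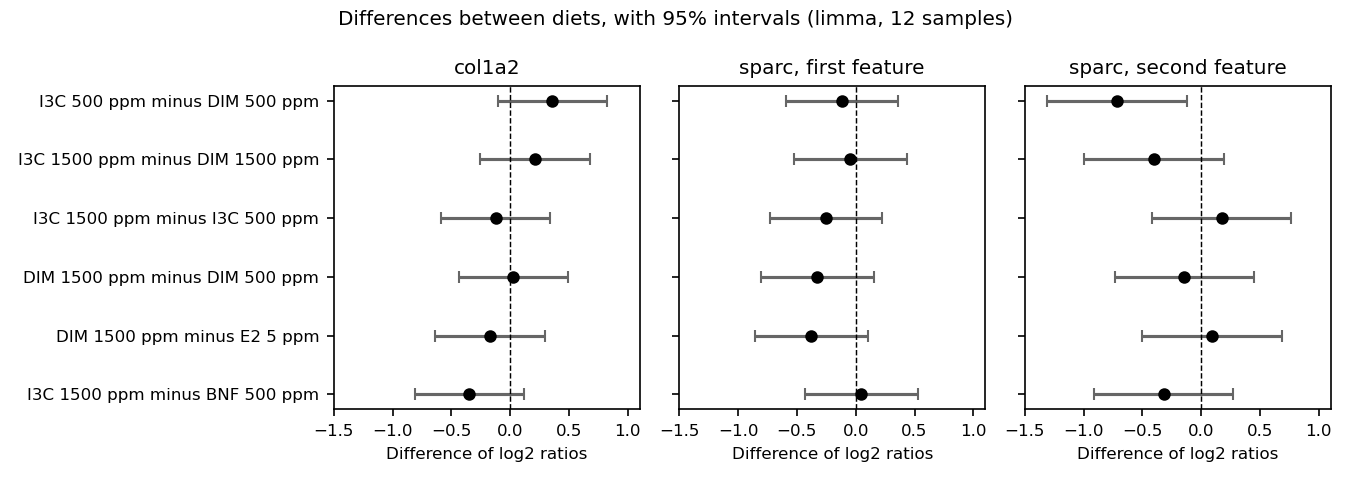
Differences of log2 ratios between diets (horizontal axis) for 6 pairs of diets (rows), for col1a2 and the sparc features. Points are differences of diet means, and bars are 95% intervals from limma's fit to 12 samples. Of the 18 intervals, only that of the second sparc feature for I3C 500 ppm minus DIM 500 ppm leaves out 0.

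Of a list of 35 matrix genes (collagens, laminins, fibronectin, matrix proteases and their inhibitors, crosslinking enzymes), the annotation names 2, and these are col1a2 and sparc themselves. Markers of other liver cells were measured in small part. Of 9 hepatocyte genes 2 were named (3 features), of 6 red cell genes 1, and of the endothelial, leukocyte and muscle lists 0. The match was by symbol or synonym, so a gene listed under another name would be missed. Over the 12 samples the 3 hepatocyte features correlated with col1a2 at r = 0.78 to 0.81, and the red cell gene at r = 0.69. antiprot1, a plasma protease inhibitor of liver origin, ranged from -1.02 in DIM 1500 ppm to -0.0091 in BNF. ambp, the precursor of another plasma protease inhibitor, ranged from -1.11 in DIM 500 ppm to 0.11 in BNF on one feature and from -1.09 to 0.17 in the same diets on the other. The red cell gene LOC100135826, listed with a carbonic anhydrase synonym, ranged from -0.75 in E2 to -0.021 in BNF. It stood below the pool in 11 of 12 samples, as did antiprot1 and the ambp feature at -1.11 in DIM 500 ppm. The other ambp feature did so in 10. How many of all features do so as often was not counted. The part of cell makeup in the col1a2 values was not tested.

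The named features most like col1a2 over the 12 samples were hsp90ba, a cytosolic chaperone, with r = 0.81 (spots 6040209 and 6040210, Spearman 0.83) and r = 0.80 (spots 6040611 and 6040612), and antiprot1 with r = 0.81 (Spearman 0.83). These hsp90ba features share the same sequence tag and correlated with each other at 0.98. A further hsp90ba feature from another tag (first spot 11040207) correlated with them at -0.39 and -0.28. Its mean was 0.082, against -0.51 for both of them. Unnamed features came closer. The closest was that of spots 5040407 and 5040408, with r = 0.92 and a mean of -0.47 over the samples, and the next 4 had r between 0.90 and 0.92 and means between -0.57 and -0.31. The closest named feature was at rank 46 of all features. The named features most like the first sparc feature were tapbp, which helps load peptides on class I molecules, with r = 0.61, LOC100136700 with r = 0.59 and LOC100136015 with r = 0.49. The second sparc feature was closest to gs04 with r = 0.77, LOC100135793 with r = 0.63 and LOC100136294 with r = 0.62. Its closest unnamed feature (spots 9040809 and 9040810) had r = 0.89, and for the first sparc feature spots 5040109 and 5040110 had r = 0.77. The values of the second feature include spot 6020313, and all values of this paragraph are with the 4 arrays turned.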

How the data were processed

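Liver RNA was read on 24 arrays of 8736 spots in 2 colours, scanned with a ScanArray instrument and QuantArray, per the labels. The deposited table gives a value for every spot on each array. From the values, 23 deposited columns are log ratios, taken as log2, and 1 holds a linear ratio and was converted. How the background and dyes were handled, the log base and the numerator are not given here. Array medians ran from -0.81 to 1.05. Arrays were centred on their medians, spot pairs averaged, swaps were turned and averaged per RNA sample, and samples whose arrays both had a median r below -0.3 with their dye orientation were turned. One limma model (limma 3.58.1, R 4.3.3) with a mean per diet and moderated pooled spread covered 12 samples, and p-values were adjusted by Benjamini-Hochberg over all 4368 features. The fit was tested on simulated data. The pool counts as 1 vehicle sample, so its spread is left out. The precision is limited by the 2 RNA samples per diet and the 1 pool. Members, gene lists and tests were chosen with earlier results of these data known. Every col1a2 and sparc feature is named, and for likeness the 3 named and 5 unnamed features with the highest Pearson r to each.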

Additional observations from a re-analysis of the deposited data

How the results depend on the processing

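The col1a2 feature was called lower in 4 diets and in 3 to 5 when each replicate was left out in turn. Leaving out replicate 2 of I3C 1500 ppm, or either replicate of E2 or of DIM 1500 ppm, changed which diets were called. The replicate block gave 4. Whether replicate numbers pair the samples is not settled. With the 4 arrays turned, the deviations of same-numbered samples correlated at -0.60 to 0.46 over 15 pairs of diets (median 0.065), and 6 exceeded 0.1. The count was 0 with signs as deposited (1 diet at an unadjusted p under 0.05 in limma). Without the turned samples, col1a2 stood at -0.96 in E2 and -0.88 in DIM 500 ppm, each from 1 sample. The count was 5 without centring, with spot 1 alone, over 24 arrays or within groups alone. Shares of all features called are given here for the main fit only, not for the refits of this section. The diet gained was I3C 500 ppm, where limma's adjusted p was 0.0543 as reported. The fit over 24 arrays took arrays of 1 RNA sample as nearly independent, at an estimated correlation of 0.0083. Without centring, col1a2 and both sparc features had 1 common standard error of 0.25. Within I3C 500 ppm alone theirs were 0.17 to 0.18. Within E2, I3C 1500 ppm, DIM 500 ppm or DIM 1500 ppm alone they again had 1 common standard error, 0.13 in DIM 500 ppm. Between diets, 0 of 396 refits were called, and 30 turned sign. Against the pool, sparc was called in 3 of 270 refits: the first feature in DIM 500 ppm and the second in I3C 500 ppm within groups alone, and the second in I3C 500 ppm without centring.

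Without centring, col1a2 stood at -1.23 in E2, -0.83 in BNF and -1.17 in I3C 500 ppm. The first sparc feature stood at 0.047, -0.41 and -0.22 in these diets and the second at -0.45, -0.43 and -1.04. I3C minus DIM at 500 ppm was -0.077 for col1a2, I3C 1500 minus 500 ppm was 0.22 for col1a2 and 0.091 for the first sparc feature, and DIM 1500 ppm minus E2 was 0.18 for col1a2. With arrays scaled alike, col1a2 was -1.30 in DIM 500 ppm and the I3C dose step of the second sparc feature -0.00047. With spot 1 alone, the second sparc feature was -1.11 in I3C 500 ppm, the I3C dose step of col1a2 was 0.11, and I3C 1500 ppm minus BNF was -0.032 for the first sparc feature. With spot 2 alone, the second sparc feature was -0.021 in I3C 500 ppm and its I3C dose step -0.38. Without the discordant spot (a setting added after the data were seen) these were -0.018 and -0.38.

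With signs as deposited, col1a2 was -0.10 in E2 and 0.18 in DIM 500 ppm, and the first sparc feature -0.091 and 0.11. I3C minus DIM at 500 ppm was then -0.88 for col1a2 and 0.14 for the first sparc feature, the DIM dose step of col1a2 was -1.21, and DIM 1500 ppm minus E2 was 0.13 for the first sparc feature. Without the turned samples the DIM dose step of col1a2 was -0.15. With the sparc features averaged, sparc was 0.16 in E2 and -0.16 in I3C 500 ppm, with -0.14 for I3C 1500 ppm minus BNF, -0.040 for the I3C dose step and -0.14 for DIM 1500 ppm minus E2. The cause of these changes was not tested.

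Leaving out 1 replicate at a time gave, for col1a2, -0.25 to 0.0046 for the I3C dose step, -0.16 to 0.21 for the DIM dose step and -0.36 to 0.017 for DIM 1500 ppm minus E2. For the first sparc feature it gave -0.27 to 0.034 for I3C minus DIM at 500 ppm, -0.25 to 0.16 at 1500 ppm and -0.10 to 0.20 for I3C 1500 ppm minus BNF. For the second it gave -0.99 to -0.15 in I3C 500 ppm, -0.24 to 0.59 for the I3C dose step, -0.32 to 0.038 for the DIM dose step and -0.11 to 0.29 for DIM 1500 ppm minus E2. Signal over background was not used here.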
